A study of Rattus norvegicus with 12 samples.

Results

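The genes described here are 6 solute carriers among the 578 germ cell markers that the study listed for rat testis, of which 575 were found in the deposited expression tables. They were taken by name, as the markers whose rat symbol begins with Slc, and not by their values. Slc25a31 is listed as a spermatogonia (SPG) marker, 1 of 12. Slc9b1 and Slco6c1 are listed as spermatocyte (SPC) markers, 2 of 181, and Slc16a7, Slc25a37 and Slc35g3 as spermatid markers, 3 of 385.

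The testes came from SD rats labelled as 8 weeks old, with no genetic modification given. RS+IS combines restraint stress with swimming in ice water, and was applied for 3 days (3-day stress group), 14 days (14-day stress group) or 21 days (21-day stress group). The control group was not given RS+IS, but per the study its rats also went without food and water in those periods. Each group has 3 libraries of whole testis RNA made after removal of ribosomal RNA, and each library holds between 23908048 and 29404590 estimated counts. Nothing in the labels ties a library to a separate rat, so the p-values measure the spread between these libraries.

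Solute carriers are membrane proteins that move small molecules and ions across cell and organelle membranes without pumping by ATP. Germ cells depend on them at each stage: spermatocytes and spermatids live behind the blood-testis barrier and take up lactate and pyruvate supplied by Sertoli cells, and their mitochondria exchange nucleotides, metabolites and iron with the cytosol through carriers of the SLC25 family. Slc25a31 encodes the ADP/ATP carrier of germ cell mitochondria, which exports ATP in exchange for ADP, and in mice it is needed for spermatocytes to pass through meiosis.

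The promoter of Slc25a31 is shown because the level of its RNA is the main result. RefSeq places the 300 bases around its start, from 250 before to 50 after, at chr2:125623081-125623380 of the GRCr8 assembly on the forward strand.
Slc25a31 promoter: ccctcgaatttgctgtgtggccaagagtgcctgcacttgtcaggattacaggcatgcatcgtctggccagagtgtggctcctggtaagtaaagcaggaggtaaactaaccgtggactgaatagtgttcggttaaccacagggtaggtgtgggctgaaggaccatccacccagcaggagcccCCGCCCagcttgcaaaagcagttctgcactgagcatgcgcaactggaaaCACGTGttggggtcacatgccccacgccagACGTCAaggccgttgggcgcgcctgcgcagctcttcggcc
The capitals mark matches to 3 short motifs, searched on both strands, that do not overlap one another. The first is the GC box GGGCGG, read on the reverse strand at base 182 and found in 33.1% of the 33469 rat promoters of the same length. The second is the E-box CACGTG at base 231, found in 6.42% of them, and the third is ACGTCA at base 261, the last letters of the cAMP response element, found in 7.94%. The window has a GC content of 58.3% and 14 CG pairs, against medians of 51.7% and 7 over all promoters. Of all promoters, 69.5% had a lower GC content and 66.5% had fewer CG pairs. The matches are a description of the letters, and no binding was measured.

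Whole testis holds many cell types, and the labelled tissue was checked against markers of germ cells. Median TPM (a transcript's level relative to its effective length and to the library's total) over the 12 libraries was 11.8 for Stra8, a spermatogonia marker, 290 for Sycp3 and 967 for Ldhc, spermatocyte markers, and 21244 for Tnp1, a spermatid marker. Markers of Sertoli, Leydig, macrophage and endothelial cells could not be named in these tables and were not examined. In bulk tissue, fewer cells of a type and less RNA per cell cannot be told apart. This holds for each comparison below, since some markers of the germ cell stages themselves moved. Between the 14-day and 21-day libraries together and the control and 3-day libraries together, the log2 fold change was -0.54 for Stra8 (adjusted p = 0.0104), -0.22 for Sycp3 (adjusted p = 0.0141), 0.46 for Tnp1 (adjusted p = 0.00751) and 0.46 for Tnp2 (adjusted p = 0.0138). Other stage markers had an adjusted p above 0.05: the spermatocyte markers Ddx4 (-0.06, adjusted p = 0.342) and Ldhc (-0.02, adjusted p = 0.847), and the spermatid marker Odf1 (0.27, adjusted p = 0.0582). The part of such changes in the results below was not tested. These and all other adjusted p-values are Benjamini-Hochberg values over every feature tested in edgeR's quasi-likelihood test, and a gene is called at a value under 0.05.

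**Figure D1:**
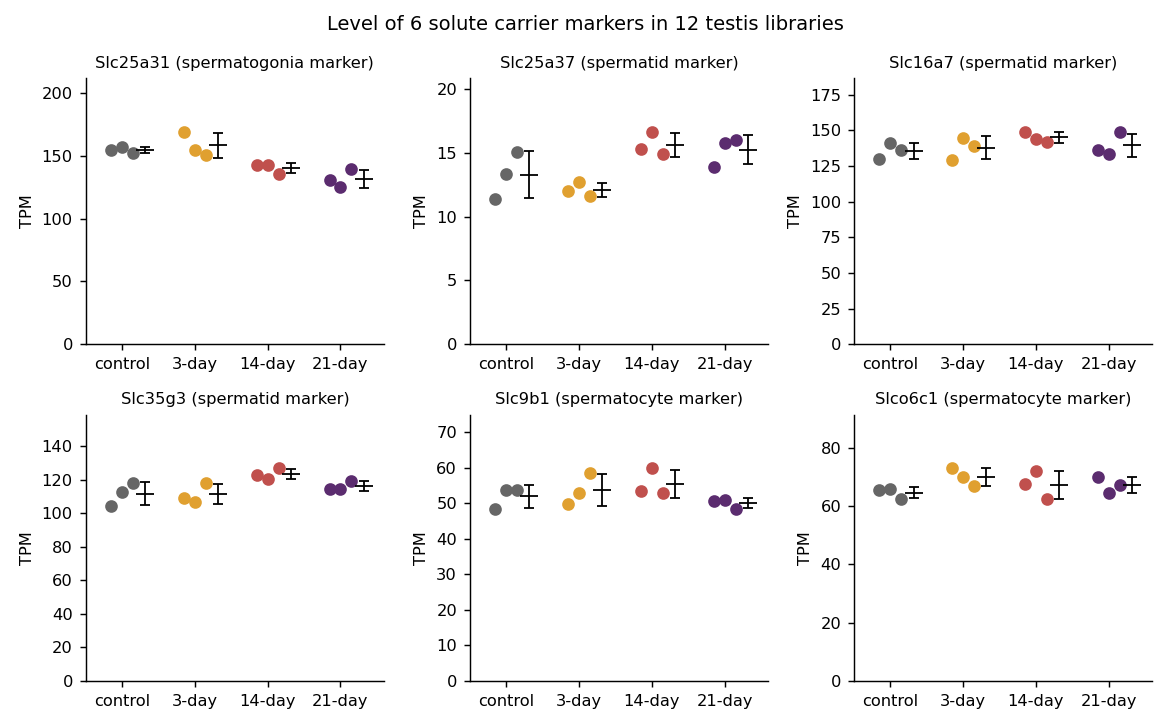
TPM of the 6 solute carrier markers in each of the 12 libraries, in 1 panel per gene, by group. Points are libraries, and the bar beside them is the mean with its SD (n = 3); the Slc25a31 points of the 14-day and 21-day groups all lie below those of the control and 3-day groups.

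By TPM, Slc25a31 was the most abundant of the 6, with a median of 147 TPM and a range of 125 to 169 TPM over the 12 libraries. Its level exceeded that of 10 of the other 11 SPG markers, whose class had a median of 15.2 TPM. Slc16a7, the monocarboxylate transporter MCT2, which carries lactate and pyruvate, followed with a median of 140 TPM, and Slc35g3, a testis member of the nucleotide sugar transporter family SLC35, with 116 TPM. Slco6c1, an organic anion transporter found in testis, had a median of 67.0 TPM and Slc9b1, a sodium/hydrogen exchanger of sperm, 52.9 TPM. Slc25a37, mitoferrin-1, which brings iron into mitochondria for heme and iron-sulfur cluster synthesis, was the least abundant with 14.4 TPM, and only 15 of the 384 spermatid markers found had a lower median. The first place of Slc25a31 is for TPM only. In the control group its shortest transcript held 51.1% of its TPM but 16.9% of its estimated counts. In CPM, counts relative to library size without division by length, its control mean was 77.5. This was below Slc16a7 (232), Slco6c1 (149), Slc9b1 (109) and Slc35g3 (107).

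The level of Slc25a31 was lower after 14 and 21 days of RS+IS. In the control libraries it was 154, 157 and 152 TPM, and in the 3-day libraries 169, 155 and 151 TPM. In the 14-day libraries it was 143, 143 and 136 TPM, and in the 21-day libraries 131, 125 and 139 TPM. Every library of the 2 longer groups lay below every library of the control and 3-day groups, whereas the control and 3-day groups overlapped, as did the 14-day and 21-day groups. In order of level, the 3-day stress group (158 ± 9.72 TPM, SD, n = 3) and the control group (155 ± 2.34 TPM) were followed by the 14-day stress group (140 ± 3.93 TPM) and the 21-day stress group (132 ± 7.19 TPM). As shares of the control mean these are 102%, 90.8% and 85.3% for 3, 14 and 21 days.

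Each stress group was first compared with the control group, which asks how the duration of stress relates to the level. The study describes controls at each time point, but the labels give the control libraries no day. Duration therefore cannot be told apart from age or time of collection, here or in the comparisons below. After 3 days the log2 fold change of Slc25a31 was 0.03 (standard error 0.0584, adjusted p = 0.986), with a 95% interval from -0.11 to 0.17. It was -0.12 after 14 days (standard error 0.0595, adjusted p = 0.462) and -0.19 after 21 days (standard error 0.0669, adjusted p = 0.297), and neither passed the threshold. The groups did not overlap in either of these, in TPM or in log2 CPM (counts relative to library size, the scale on which overlap was counted), and the two-sided exact permutation test gave p = 0.1, the smallest that 3 against 3 libraries allow. Groups that do not overlap were seen for 20.0% of all features at 14 days and 22.4% at 21 days, so that such a separation is common in these comparisons. Over all features edgeR called 0 at 3 days, 0 at 14 days and 0.0189% at 21 days, where DESeq2 called 39, 343 and 736. Unadjusted values under 0.05 in edgeR were given to 851 and 2542 features at 3 and 14 days and, at 21 days, to Slc25a31 and 14.2% of all features.

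With both longer groups together against control (6 libraries against 3), the log2 fold change was -0.16 (standard error 0.0513, 95% interval -0.27 to -0.042), with adjusted p = 0.134. All 6 stress libraries were below all 3 control libraries (exact permutation p = 0.0238, the smallest possible), which was the case in 1 direction or the other for 11.4% of all features. An adjusted p under 0.05 was reached by 1.62% of features in this comparison and by none of the 6 solute carriers.

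The 14-day and 21-day groups were also compared with the control and 3-day groups (6 libraries against 6). This split follows the clustering that the study shows for markers in the same libraries, and is therefore not independent of them. The log2 fold change of Slc25a31 was -0.16 (standard error 0.0380, 95% interval -0.24 to -0.080, adjusted p = 0.0258), a decrease of 10.6%. All 6 libraries lay below all 6 others (exact permutation p = 0.00216, the smallest possible). Of all features, 7.28% were called in this comparison, 2.29% lower and 4.99% higher, and 1.7% lay wholly below as Slc25a31 did. The call was lost without the first 21-day library (adjusted p = 0.0504, log2 fold change -0.14) and held when any other single library was left out. The transcript lengths available for counting moved with this split. The median difference between the length and the effective length of transcripts was 304 to 312 bases in the control and 3-day libraries and 291 to 300 bases in the 14-day and 21-day libraries. On the log2(TPM + 1) scale, which takes account of effective length, the log2 fold change of Slc25a31 was -0.20 (limma, adjusted p = 0.0174). That scale weighs the shortest Slc25a31 transcript most, as described below. The shift in length cannot be told apart from stress duration in this split. Its part in the values of this comparison, for Slc25a31 or any other gene, was not tested.

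Between stress groups, Slc25a31 differed by -0.24 at 21 against 3 days (unadjusted p = 0.00408, adjusted p = 0.175), by -0.15 at 14 against 3 days (adjusted p = 0.303) and by -0.07 at 21 against 14 days (adjusted p = 0.999) on the log2 scale. The 95% interval of the last difference ran from -0.20 to 0.060. Over all features edgeR called 0.00471% at 21 against 3 days, where 3511 of 21210 had an unadjusted value under 0.05. It called 0 at 14 against 3 days (2835 with an unadjusted value under 0.05, 415 called by DESeq2) and 0 at 21 against 14 days (643 with an unadjusted value under 0.05, 20 called by DESeq2). Both comparisons with the 3-day group had groups that did not overlap, against 20.5% of all features at 14 days and 23.2% at 21 days.

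**Figure D2:**
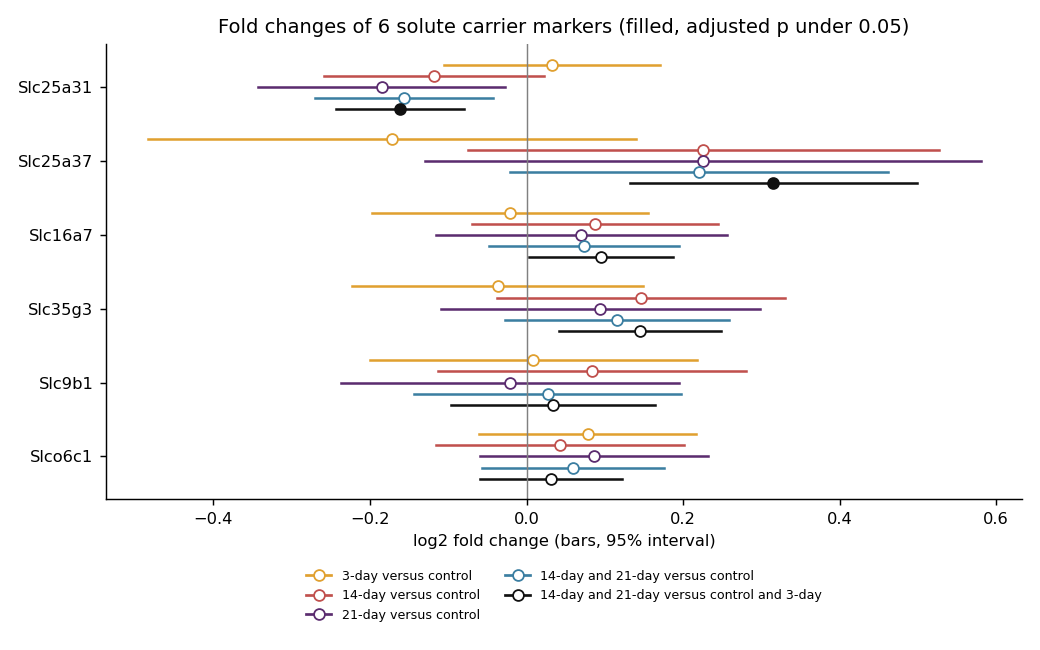
Log2 fold changes of the 6 solute carrier markers (x axis) in 5 comparisons, with 95% intervals from edgeR; filled points have an adjusted p under 0.05. The filled points are Slc25a31 at -0.16 and Slc25a37 at 0.32, both in the comparison of 6 against 6 libraries.

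Slc25a31 is the sum of 3 deposited transcripts. ENSRNOT00000093416.1 (1149 bases) held 62.6% ± 0.867 (SD, n = 3) of its estimated counts in the control group, ENSRNOT00000058476.4 (963 bases) 20.6% ± 1.15 and ENSRNOT00000093483.1 (486 bases) 16.9% ± 1.08. By TPM the shortest one took the largest share, 51.1% ± 1.87, because TPM divides by an effective length of 176 bases for it and of 987 bases for the longest. Reads in shared exons are divided among the transcripts by estimation, so their separate values are less certain than the sum.

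The longest Slc25a31 transcript, which held most of these counts, was called when tested alone. Its estimated counts, not scaled to library depth, were 1337, 1311 and 1274 in control, 1366, 1491 and 1340 at 3 days, 1134, 1198 and 1030 at 14 days and 1016, 1129 and 1110 at 21 days. Fitted as a feature of its own, it differed by -0.19 on the log2 scale in the comparison of 6 against 6 libraries (standard error 0.0396, adjusted p = 0.0166), where 7.3% of the single transcripts tested were called. The other 2 transcripts gave -0.14 (ENSRNOT00000058476.4, adjusted p = 0.287) and -0.10 (ENSRNOT00000093483.1, adjusted p = 0.361), with 95% intervals of -0.31 to 0.030 and -0.23 to 0.040. The share of the counts held by each transcript did not separate the same groups (two-sided exact permutation p = 0.182, 0.732 and 0.169 for the longest, middle and shortest), and the share of the longest was 61.5% ± 1.61 against 62.6% ± 0.764 (n = 6 each).

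**Figure D3:**
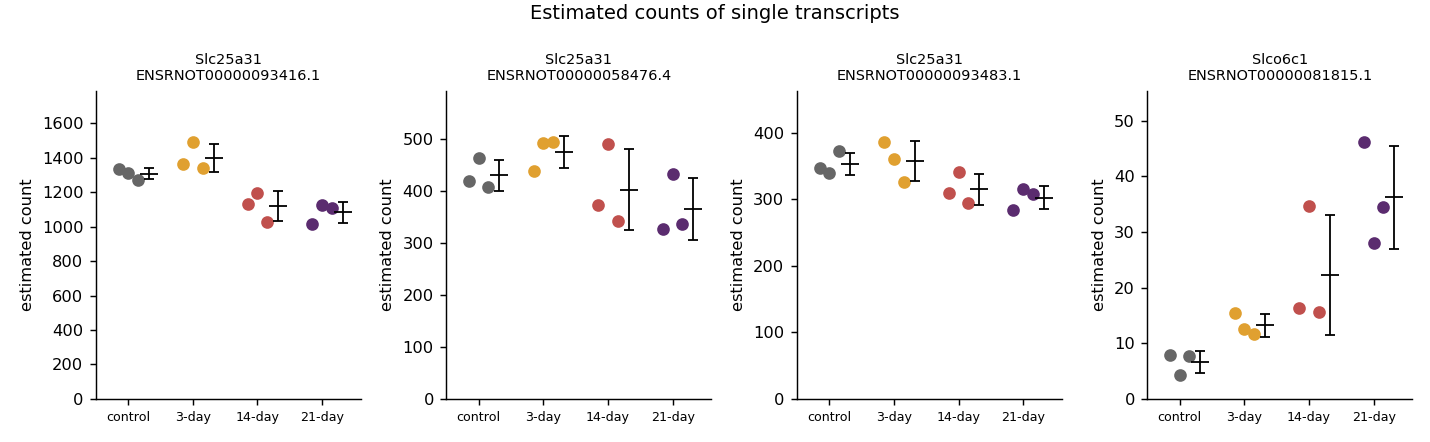
Estimated counts (y axis, from 0) of the 3 Slc25a31 transcripts and of the low transcript ENSRNOT00000081815.1 of Slco6c1, per library and group, with the mean and SD beside them (n = 3). The longest Slc25a31 transcript is lower in each 14-day and 21-day library than in each control and 3-day library, and the Slco6c1 transcript is at 4.34 to 7.89 counts in control and at 28.0 to 46.2 at 21 days. The counts are not scaled to library depth, and how many transcripts separate in this way was not counted.

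The other carrier of the mitochondrial family, Slc25a37, went the other way. Its level was 11.4, 13.4 and 15.1 TPM in control, 12.03, 12.7 and 11.6 TPM at 3 days, 15.3, 16.7 and 14.9 TPM at 14 days and 13.9, 15.8 and 16.0 TPM at 21 days. The control libraries spanned much of the range of the others, and 4 of the 6 libraries of the longer groups were above all 6 control and 3-day libraries on the log2 CPM scale. The log2 fold change against control was -0.17 at 3 days (adjusted p = 0.985), 0.23 at 14 days (adjusted p = 0.498) and 0.23 at 21 days (adjusted p = 0.513). In the comparison of 6 against 6 libraries it was 0.32 (standard error 0.0851, 95% interval 0.13 to 0.50, adjusted p = 0.0423, exact permutation p = 0.00866), and higher calls made up 4.99% of all features there. This call was lost when any of 9 of the 12 libraries was left out, with adjusted p between 0.0593 and 0.102, and held only without replicate 2 or 3 of the control group or the first 21-day library. The 2 mitochondrial carriers were thus the only ones of the 6 called in any comparison, 1 lower and 1 higher, and in no comparison against control alone.

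Against the 3-day group, Slc25a37 was separated more widely than against control. The log2 fold change was 0.39 at 14 days (standard error 0.0784, unadjusted p = 0.0013, adjusted p = 0.200) and 0.37 at 21 days (standard error 0.104, adjusted p = 0.186), and the groups did not overlap. At 14 against 3 days, 4 of the 6 solute carriers had groups that did not overlap in log2 CPM, with Slc25a31 lower and Slc16a7, Slc25a37 and Slc35g3 higher, and 20.5% of all features did so.

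Slc16a7 and Slc35g3, both listed as spermatid markers, were not called in any comparison. Slc35g3 had 104, 113 and 118 TPM in control, 109, 107 and 118 TPM at 3 days, 123, 121 and 127 TPM at 14 days and 114, 115 and 119 TPM at 21 days. Its 14-day libraries lay above all control libraries, with a log2 fold change of 0.15 (adjusted p = 0.478). In the comparison of 6 against 6 libraries it was 0.15 (standard error 0.0480, unadjusted p = 0.00973, adjusted p = 0.0837), where 5302 of 20982 features had an unadjusted value under 0.05. Slc16a7 had 130, 141 and 136 TPM in control, 129, 145 and 139 TPM at 3 days, 149, 144 and 142 TPM at 14 days and 136, 133 and 149 TPM at 21 days. Its log2 fold change of 6 against 6 libraries was 0.09 (standard error 0.0425, adjusted p = 0.182). The 381 other spermatid markers tested there had a median log2 fold change of 0.15, with 69 called higher and 1 lower (4.99% and 2.29% of all features), and Slc35g3 lay near the middle of its class, Slc16a7 below and Slc25a37 above it: 369 of 384 spermatid markers had a lower value than Slc25a37.

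The 2 SPC markers, Slc9b1 and Slco6c1, were not called either, and their groups overlapped in log2 CPM in all 8 comparisons. Slc9b1 had 48.3, 53.8 and 53.8 TPM in control, 49.8, 52.9 and 58.5 TPM at 3 days, 53.6, 59.9 and 52.9 TPM at 14 days and 50.8, 51.1 and 48.5 TPM at 21 days. Its log2 fold change at 21 days against control was -0.02, with a 95% interval from -0.24 to 0.19. Slco6c1 had 65.4, 65.9 and 62.5 TPM in control, 73.0, 70.1 and 66.9 TPM at 3 days, 67.6, 71.9 and 62.5 TPM at 14 days and 70.2, 64.6 and 67.2 TPM at 21 days. In TPM alone its 3-day libraries lay above the control libraries, and how many features do so was not counted. The log2 fold change from counts was 0.08 at 3 days (adjusted p = 0.985). Its log2 fold change at 21 days against control was 0.09, with a 95% interval from -0.059 to 0.23. The 177 other SPC markers had a median of -0.06 at 21 days against control.

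Within Slco6c1, a transcript of low level moved apart from the gene. Nearly all of its counts belonged to ENSRNOT00000077596.1 (2431 bases), at 62.2 to 72.7 TPM, and 2 of its 4 transcripts were listed at 0 in all 12 libraries. ENSRNOT00000081815.1 (2112 bases) had 7.89, 4.34 and 7.68 estimated counts in control, 15.5, 12.5 and 11.6 at 3 days, 16.4, 34.7 and 15.6 at 14 days and 46.2, 28.0 and 34.5 at 21 days. In estimated counts, each stress library was above each control library. Each 14-day or 21-day library was above each 3-day library, by 15.6 against 15.5 at the closest. The longer groups and control did not overlap in log2 CPM for 11.4% of all features, and shares for the other orders were not counted. Its share of the counts of the gene was 0.165% ± 0.0501 in control, 0.299% ± 0.0523 at 3 days, 0.544% ± 0.178 at 14 days and 0.899% ± 0.266 at 21 days (SD, n = 3).

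Fitted as a feature, the low Slco6c1 transcript was higher by 2.18 on the log2 scale in both longer groups against control (standard error 0.452, 95% interval 1.18 to 3.19, adjusted p = 0.0463), where 1.66% of features were called. Against control and 3 days together it was 1.62 (standard error 0.346, adjusted p = 0.0177). At 21 days against control it was 2.51 (adjusted p = 0.153) and at 3 days 0.97 (adjusted p = 0.979). It was picked out after its values had been seen, its level did not exceed 0.975 TPM, and its counts are the part of shared reads that the estimation gave to it. The call against control alone was lost when any library but replicate 3 of the 14-day group was left out (adjusted p up to 0.125), and the call against control and 3 days held without each of the 12.

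A similar pattern was looked at in Slc16a7, whose transcript ENSRNOT00000058036.3 (2289 bases) held 3.84% ± 0.882 of the counts of the gene in control and 5.10% ± 1.38, 6.19% ± 2.58 and 6.08% ± 0.568 at 3, 14 and 21 days. The difference in share between the longer groups and control was 2.29 percentage points (two-sided exact permutation p = 0.0714), and the log2 fold change of the transcript was 0.73 (adjusted p = 0.135). In the 14-day group, the second library was the highest for this transcript (634 estimated counts against 298 and 271) and for the low Slco6c1 transcript alike.

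The markers whose course over the 12 libraries was most like that of Slc25a31 were sought among the other 574 markers by the root mean square difference of centred log2 CPM. Among the nearest were Smc4, a condensin subunit (0.0525), Gtf2b, the general transcription factor TFIIB (0.0573), Chmp2b, an ESCRT-III subunit (0.0591), and Sycp3, a component of the synaptonemal complex (0.0638). These 4 are listed as SPC markers, although Slc25a31 is listed under SPG. For scale, Slc25a31 itself varied around its mean by 0.0958, and the median marker was 0.170 away. A marker with no variation at all would lie at 0.0958. Among the 50 nearest, 47 were SPC, 2 spermatid and 1 an SPG marker, against 179, 384 and 11 available. The nearest SPG marker was Atad5, at rank 18, and the median distance was 0.107 for SPC, 0.193 for spermatid and 0.196 for SPG markers. The median SPC marker was thus farther away than a marker with no variation would be. Ranks by distance therefore also depend on how much each marker varies, and the part of this in the class counts was not tested. These distances are a description over libraries that share their groups.

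**Figure D4:**
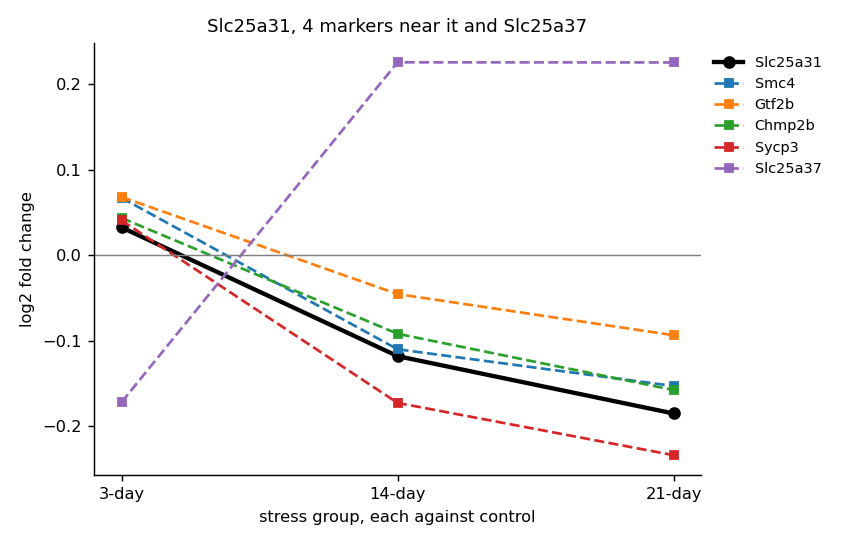
Log2 fold change of Slc25a31, of 4 markers near it and of Slc25a37 in each stress group against the same control libraries. The Slc25a31 line runs from 0.03 at 3 days to -0.19 at 21 days, near those of Smc4, Chmp2b, Gtf2b and Sycp3, and Slc25a37 runs from -0.17 to 0.23.

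The other solute carriers were farther away. Slco6c1 ranked 129, Slc9b1 203, Slc16a7 214 and Slc35g3 304 of 574, and Slc25a37 ranked 544, at a distance of 0.277. Sycp3 went from 0.04 at 3 days to -0.17 and -0.23 at 14 and 21 days on the log2 scale, against 0.03, -0.12 and -0.19 for Slc25a31. Since these markers were chosen by their course over the same libraries, their values of 6 against 6 libraries are a description: the log2 fold change was -0.22 for Sycp3, -0.16 for Smc4, -0.14 for Chmp2b and -0.10 for Gtf2b.

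Within the SPG class, Slc25a31 moved less than most. The 11 other SPG markers had a median log2 fold change of -0.25 in the comparison of 6 against 6 libraries, and 7 of them had a lower value than Slc25a31. Stra8, Tex19.1 (-0.36, adjusted p = 0.00899) and Ccne2, cyclin E2 (-0.36, adjusted p = 0.00532), were called lower, and none of the 11 higher, against 2.29% and 4.99% of all features. Against control, Slc25a31 at -0.16 had 9 of the 11 below it. The class median was -0.12, -0.26 and -0.37 at 3, 14 and 21 days against control, and the corresponding values of Slc25a31 were 0.03, -0.12 and -0.19.

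Genes that work beside the carriers were taken as 3 lists from the markers. Among 10 enzymes of energy metabolism, 1 was called against control, where 1.62% of all features were called, and no other member was called in any comparison. This was Got1l1, a relative of aspartate aminotransferase, higher in both longer groups by 0.42 on the log2 scale (standard error 0.0683, adjusted p = 0.0298). Its level was 21.4, 22.7 and 22.6 TPM in control and 23.3, 23.5 and 22.8 TPM at 3 days. At 14 days it was 28.3, 28.7 and 28.0 TPM, and at 21 days 31.6, 27.7 and 31.8 TPM. Got1l1 had no overlap between the shorter and longer groups in TPM, and how many features lay wholly higher was not counted. Of 6 against 6 libraries it had the same log2 fold change, 0.42 (adjusted p = 0.00367), or 0.65 by its most abundant transcript alone. Higher calls made up 4.99% of all features there. The Got1l1 call of 6 against 6 held without each of the 12 libraries, whereas that against control was lost without 6 of 9 (adjusted p up to 0.0912). The lowest value of the list against control was that of Mdh1b, a malate dehydrogenase relative (-0.05, adjusted p = 0.860). The list had a median log2 fold change of 0.08 against control, and all features a median of -0.01. Ldhc, the germ cell lactate dehydrogenase, which uses what Slc16a7 carries, had -0.03 (adjusted p = 0.806).

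Among 10 mitochondrial proteins, 2 were called lower and 0 higher in the comparison of 6 against 6 libraries, where 2.29% of all features were lower and 4.99% higher. Tomm22, a receptor of the outer membrane import complex, had 85.8, 80.8 and 84.5 TPM in control, 87.4, 78.6 and 86.5 TPM at 3 days, 71.8, 73.2 and 70.5 TPM at 14 days and 73.7, 72.1 and 69.4 TPM at 21 days. Its log2 fold change was -0.17 (standard error 0.0401, adjusted p = 0.0263), close to that of Slc25a31. The longer groups did not overlap the others for Tomm22 in TPM. How many features do so in TPM was not counted, and in log2 CPM 1.7% of all features lay wholly lower. The Tomm22 call was lost without the third control library (adjusted p = 0.0537). Cox7b2, a testis form of a cytochrome c oxidase subunit, had a difference of -0.19 on the log2 scale (standard error 0.0497, adjusted p = 0.0357), with 5654 ± 317 TPM at 21 days and 6433 ± 171 TPM in control. The call of Cox7b2 was lost without any of 7 of the 12 libraries (adjusted p up to 0.0669). Both are listed as SPC markers. The list median was 0.06, and against control alone the extremes were Cox6b2, another oxidase subunit (0.13, adjusted p = 0.498), and Tfam, which packages mitochondrial DNA (-0.28, adjusted p = 0.257), with 0 members called.

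Among 13 other channels, pumps and pores, 3 were called higher and 0 lower in the comparison of 6 against 6 libraries, against 4.99% and 2.29% of all features. Atp1a4, the sodium pump subunit of sperm, was higher by 0.31 on the log2 scale (standard error 0.0713, adjusted p = 0.0228), Lrrc8b, a subunit of volume-regulated anion channels, 0.26 (standard error 0.0691, adjusted p = 0.0416), and Best1, a chloride channel, 0.22 (standard error 0.0494, adjusted p = 0.0205). Atp1a4 was at 240 ± 26.5 TPM in control, 230 ± 23.4 TPM at 3 days, 281 ± 7.07 TPM at 14 days and 293 ± 5.61 TPM at 21 days. All 3 are listed as spermatid markers. The call of Atp1a4 was lost without the third 21-day library (adjusted p = 0.0588), that of Best1 without it or the first 3-day library (adjusted p = 0.0634 and 0.0583), and that of Lrrc8b without any of 10 of the 12 libraries (adjusted p up to 0.0903). Against control alone 0 of the 13 were called, and the values ran from -0.09 for Aqp9, a water and glycerol channel (adjusted p = 0.591), to 0.29 for Catsper4, a subunit of the sperm calcium channel (adjusted p = 0.275).

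**Figure D5:**
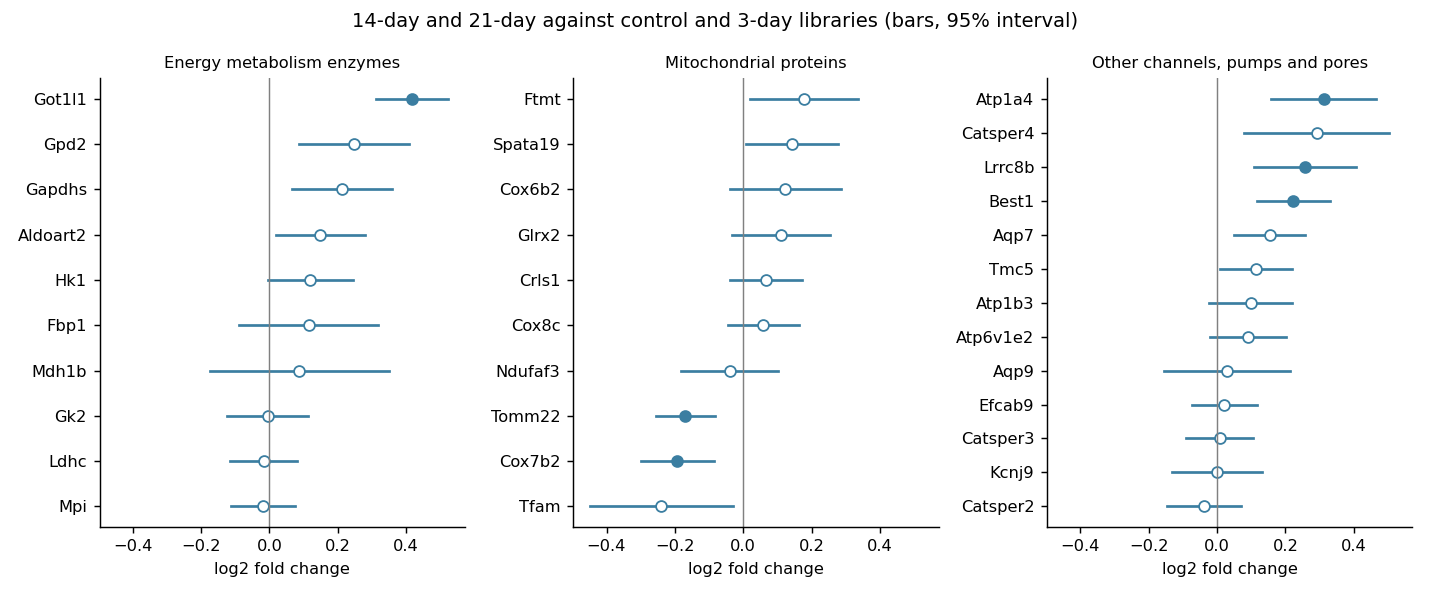
Log2 fold changes (x axis) with 95% intervals of the members of the 3 lists, between the 14-day and 21-day libraries and the control and 3-day libraries; filled points have an adjusted p under 0.05. Got1l1, Atp1a4, Lrrc8b and Best1 are filled to the right of 0, and Tomm22 and Cox7b2 to the left.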

How the data were processed

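Per the labels, RNA was sequenced from whole testis, 3 libraries in each of 4 groups, and the study's methods and processing notes name Trimmomatic, HISAT2, HTSeq and Rnor_6.0, without versions. The authors deposited 1 table per library with, for each of 31715 Ensembl transcripts, a length, an effective length, an estimated count that need not be whole, and TPM. Effective lengths and fractional counts per transcript are not what HTSeq writes, and the quantifier that made them is not given in the sources used here. The tables name transcripts, not genes, so each marker was sought as a row or run of neighbouring rows (425 single rows, 150 runs, 3 not found). The summed counts had to match those of the study's marker table in all 12 libraries. The summed TPM matched as well for all found but 1. Of the markers found, 534 matched 1 run alone, and for the others the shortest run was taken. Summing gave 31519 features.

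The deposited estimated counts were rounded and tested with edgeR 4.0.16 in R 4.3.3 (TMM, filterByExpr, glmQLFit and glmQLFTest) on the libraries of each comparison alone, with Benjamini-Hochberg adjustment over all features tested and a threshold of 0.05. The standard error is the size of the log2 fold change divided by the square root of F. Log2 CPM used a prior count of 2. Levels are given as the deposited TPM. Exact permutation tests of log2 CPM, or of transcript shares, were two-sided (SciPy 1.17.1). Alternatives used DESeq2 1.42.0, limma 3.58.1 on log2(TPM + 1), other scalings, filters and feature definitions, a replicate block and each library left out. Depth, 23908048 to 29404590 estimated counts per library, sets the counting error of each value, and the replicate spread is taken up by the test.

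The markers and lists were chosen with earlier results of these data known. Named genes were the 6 members, the 5 markers nearest to Slc25a31 (1 is not reported here), and in each list the highest and lowest log2 fold change of the 14-day and 21-day groups against control and each member with an adjusted p under 0.05; germ cell stage markers and single SPG markers are named beside them. Promoter sequences were those of RefSeq on GRCr8, another assembly than that of the counts, and matched 3 of the 6 genes; no other coordinates are given. No 2 libraries of a group were copies: chi-square tests of their counts gave 9.23 to 33.4 per degree of freedom.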

Additional observations from a re-analysis of the deposited data

How the results depend on the processing

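The direction and call of the Slc25a31 results held under nearly all alternatives. Its lower level of 6 against 6 libraries kept an adjusted p under 0.05 in all 9 other settings (0.000739 to 0.0367), and between -0.20 and -0.14 on the log2 scale when single libraries were left out. DESeq2 also called 21 against 3 days (-0.22, adjusted p = 0.0450), where it called 772 features and edgeR 1. At 3 days against control, leaving out single libraries moved the value from -0.0023 to 0.072, and it turned negative without the first 3-day library. The Slc25a37 call of 6 against 6 libraries was also lost without a filter on low counts (adjusted p = 0.0706) and in a single fit of all 12 libraries (adjusted p = 0.0558), and DESeq2 called it at 14 against 3 days (adjusted p = 0.0335). 

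Other calls were lost too. Without a filter these were Lrrc8b (adjusted p = 0.0710) of 6 against 6 libraries and, against control, the low Slco6c1 transcript (0.0552). In the fit of all 12 libraries they were Cox7b2 (0.0633) and Lrrc8b (0.0554) of 6 against 6, and by its most abundant transcript alone Got1l1 against control (0.0699).

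Changes of sign were confined, among the results of the 6 genes, to values with no call. Slc16a7 at 3 days against control became 0.0085 under total count scaling, 0.023 by its most abundant transcript and 0.022 on log2(TPM + 1), and Slc9b1 of 6 against 6 libraries became -0.0029 on log2(TPM + 1). Slco6c1 at 21 against 3 days became 0.0087 with RLE size factors, 0.0068 without a filter, 0.014 in the fit of all 12 libraries and 0.0041 with DESeq2, and Slc25a37 at 21 against 14 days became 0.0035, 0.0016 and 0.0016 with RLE size factors, the fit of all 12 and DESeq2. With single libraries left out, the ranges that crossed 0 were -0.062 to 0.058 for Slc9b1, -0.072 to 0.026 for Slc16a7 and -0.11 to 0.012 for Slc35g3 at 3 days against control, -0.0023 to 0.086 for Slco6c1 at 14 days and -0.098 to 0.017 for Slc9b1 at 21 days against control, -0.035 to 0.085 for Slc9b1 in the 14-day and 21-day groups against control and -0.0054 to 0.051 against control and 3 days, -0.084 to 0.0038 for Slco6c1 at 14 against 3 days, -0.050 to 0.015 for Slco6c1 and -0.10 to 0.0097 for Slc9b1 at 21 against 3 days, and -0.035 to 0.023 for Slc16a7 and -0.078 to 0.087 for Slc25a37 at 21 against 14 days.

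The replicate numbers of the groups were not taken as pairs, since deviations of same-numbered libraries correlated between -0.122 and 0.225 and no 2 groups had all 3 above 0.1. With the replicate number as a block, Slc25a31 of 6 against 6 libraries was -0.16 (adjusted p = 0.0320), the calls of the 6 genes kept their side of the threshold, those of Got1l1 (adjusted p = 0.0699) and of the low Slco6c1 transcript (adjusted p = 0.0878) against control were lost, and the number of features called against control in the 14-day and 21-day groups went from 351 to 17. That number was 1653 with DESeq2, 710 in the fit of all 12 libraries, 671 with at least 10 counts in every library and 154 on log2(TPM + 1). Called features of 6 against 6 libraries numbered 1527 with edgeR and 2744 with DESeq2, and of 21 days against control 4 with edgeR, 736 with DESeq2 and 667 in the fit of all 12. Of 1133 recomputed values, 1011 kept their direction and side of the threshold. Within groups the SD of log2 CPM was 0.053 for Slc25a31 and 0.15 for Slc25a37. Depth limits the low transcripts, such as ENSRNOT00000081815.1 at 4.34 to 46.2 counts.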
